A study of Caenorhabditis elegans with 18 samples.

Results

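The annular furrow collagens are 6 cuticle collagen genes of Caenorhabditis elegans: dpy-2, dpy-3, dpy-7, dpy-8, dpy-9 and dpy-10. They were taken by gene name from the table of condition means, among probe sets that the authors mapped to a single gene. Where a gene had several such probe sets, the one with the highest mean over the 18 conditions was used. This gave 6 of 17000 genes with a current symbol, carried by 8 of 22548 worm probe sets on the Affymetrix array, since dpy-2 and dpy-10 had 2 probe sets each. The probe sets used were 184162_at for dpy-2 (T14B4.6), 189723_s_at for dpy-3 (EGAP7.1), 192146_s_at for dpy-7 (F46C8.6), 190446_s_at for dpy-8 (C31H2.2), 190013_at for dpy-9 (T21D12.2) and 175025_at for dpy-10 (T14B4.7). In RefSeq's gene table dpy-3, dpy-7 and dpy-8 lie on chromosome X, dpy-9 on IV, and dpy-2 and dpy-10 on II, where a single protein-coding gene, T14B4.19, separates them. No coordinates or sequences are given, because no genome or sequence table was used here.

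The animals were wild-type strain N2, kept in liquid culture at 20 °C as 10000 larvae in 10 ml of S-complete buffer. Fed larvae hatched with 25 mg/ml of E. coli HB101, and were taken 0, 1, 3, 6, 12, 15 and 24 h after hatching. Starved larvae hatched without bacteria, which holds them in arrest at the first larval stage (L1), and were taken at the same 7 times. The sample titles call the fed larvae L1 up to 12 h, between L1 and L2 at 15 h, and L2 at 24 h, while another label field calls those at 15 and 24 h L1 as well. A refed group spent 12 h without bacteria followed by 3 h with them, and a food-removed group the reverse, 12 h with bacteria followed by 3 h without. The 2 remaining groups were larvae starved for 3 h in M9 buffer and embryos at the 3-fold stage, 2 h before hatching. Hatching spanned 2.5 h, and 0 h was the time at which 50% had hatched.

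The cuticle of C. elegans is a collagen-rich matrix secreted by the epidermis, and it is made anew before each moult. Its surface carries circumferential grooves, the annular furrows, and the proteins of these 6 genes are needed to form them. Loss of any of the 6 gives short, stout (Dumpy) animals whose furrows are missing, and the epidermis then switches on osmotic and antimicrobial genes. Cuticle collagen genes are known to be transcribed in waves before each moult, with the furrow group early in the wave.

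Each deposited value is the authors' mean intensity over 3 arrays, with an error that the authors give in the same unit, written here as mean ± error. Means below 5 were raised to 5 by the authors, so a value of 5 is a floor. The authors called a probe set detected in a condition when its p against background was under 1e-10. Between 10873 and 12332 probe sets were detected per condition, the median intensity lay between 35.1 and 41.2, and the lowest detected intensity lay between 19.4 and 23.6. The 21 fed arrays were hybridized on 3 days and the 21 starved arrays on 3 other days, with 0 days shared, so hybridization day and food cannot be told apart in any fed against starved comparison. The M9 arrays shared the days of the fed arrays and the embryo arrays those of the starved arrays, while the refed and food-removed arrays shared 1 day with each other and none with the rest. The same limit therefore holds where refed or food-removed larvae are set beside fed or starved larvae. It also holds for M9 against starved larvae and for the embryo against fed larvae. Levels of different genes come from different probe sets and are not compared with each other.

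All 6 genes had their 2 highest levels in larvae fed for 12 h and for 24 h, and were low in all 7 starved conditions and in fed larvae in between, at 15 h. dpy-7, whose protein is widely used to mark the furrows, had 42.9 ± 21.7, 36.9 ± 17.7, 13.6 ± 11.5, 108 ± 30.9, 627 ± 151, 47.1 ± 19.9 and 657 ± 111 in larvae fed for 0, 1, 3, 6, 12, 15 and 24 h. At the same times starved larvae had 28.1, 7.01, 15.3, 5, 7.62, 10.6 and 5. The gene was detected in 2 of 18 conditions, fed 12 h and fed 24 h, and its embryo mean of 104 ± 52 was not called detected. The fed 12 h and 24 h means differ by less than their errors, and the next highest, fed 6 h, was 5.79 times below the lower of them.

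dpy-8, another furrow collagen whose loss gives a Dumpy animal, had 21.3 ± 9.48, 16.8 ± 8.6, 20.0 ± 9.24, 55.8 ± 24.4, 965 ± 213, 97.5 ± 23.4 and 735 ± 135 over the fed times. Starved larvae had 15.5, 20.5, 19.0, 17.8, 13.6, 16.6 and 20.0, a range narrower than the error of a single mean. It was detected in 4 conditions: fed at 12, 15 and 24 h, and food-removed larvae. Unlike the means of dpy-7, that of dpy-8 in the embryo, 16.6 ± 8.56, was no higher than those of starved larvae.

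dpy-9 had 10.2 ± 6.87, 5, 5, 56.0 ± 23.4, 428 ± 104, 45.8 ± 14.6 and 444 ± 96.2 over the fed times. In starved larvae it had 9.45, 8.35 and 7.71 at 0, 1 and 3 h, and then stood at the floor of 5 at 6, 12, 15 and 24 h. It was at the floor in 8 of 18 conditions and detected in 2, again fed 12 h and fed 24 h. dpy-3 had 49.7 ± 18.1, 22.9 ± 12.6, 11.2 ± 9.53, 54 ± 18.8, 416 ± 116, 62.1 ± 20.3 and 289 ± 96.7 over the fed times. Starved larvae had 15.8, 14.7, 5, 5, 6.23, 5 and 5.59 for dpy-3. Only the fed 12 h mean of dpy-3 was called detected, so its level at 24 h, although the second highest, is below the authors' criterion.

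dpy-10, in which dominant mutations make the animals roll and which is widely edited as a visible marker, had 145 ± 32.9, 132 ± 30.9, 74.5 ± 22.5, 210 ± 42.5, 733 ± 173, 86.6 ± 24.4 and 689 ± 129 over the fed times. Starved larvae had 113 ± 34.3 at 0 h, 50.0 at 1 h, and 29.3, 33.3, 41, 34.4 and 37.9 from 3 to 24 h. On this probe set it was detected in 6 conditions: the embryo, and fed larvae at 0, 1, 6, 12 and 24 h. dpy-2, its neighbour on chromosome II, had 193 ± 26.1, 164 ± 23.6, 143 ± 21.8, 214 ± 35.3, 1018 ± 204, 184 ± 25.3 and 834 ± 159 over the fed times. Starved larvae had 168, 172, 186, 168, 122, 122 and 125 for dpy-2, which was detected in all 18 conditions. For dpy-2 the fed means at 0, 1 and 3 h therefore overlapped the starved range of 122 to 186, with a higher signal at 0 h.

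The second probe sets had the same 2 highest conditions, fed 12 h and fed 24 h, at lower signal. 173355_s_at for dpy-2 had 313 ± 65.6 at fed 12 h, 22.9 ± 13.9 at fed 15 h and 276 ± 60 at fed 24 h, and between 5 and 7.87 in starved larvae, where it was never detected. 188200_at for dpy-10 had 465 ± 93.4, 122 ± 26.9 and 470 ± 89.7 at the same fed times, and between 62.2 and 101 in starved larvae. It was detected in 10 conditions: the embryo, starved larvae at 0, 3 and 6 h, fed larvae at 1, 6, 12, 15 and 24 h, and refed larvae. Detection and fold bounds below are those of the probe set used, not of the gene, and values of the second one are given beside the main results. Over the 18 conditions the log2 means of the 2 probe sets correlated with r = 0.90 for dpy-2 and r = 0.89 for dpy-10.

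**Figure D1:**
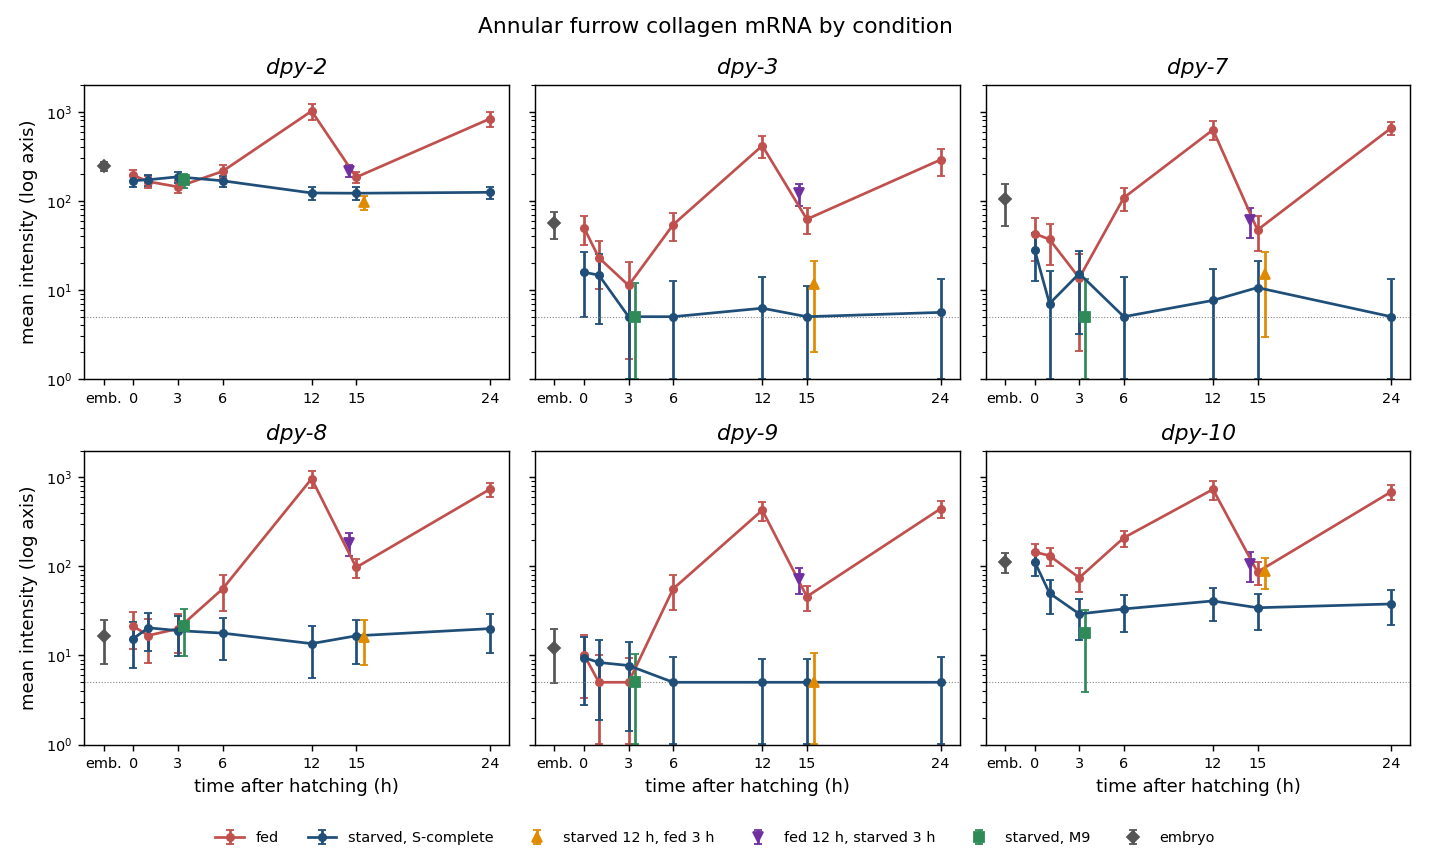
Mean intensity (log axis) of each furrow collagen gene against hours after hatching, for fed and starved larvae, the refed, food-removed and M9 groups (shifted slightly sideways) and the embryo (emb., 2 h before hatching). Bars are the authors' errors of the mean, cut at 1, and the dotted line is the floor of 5; all 6 genes peak at fed 12 h and 24 h with a low between them at 15 h.

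Whether food changes these genes was first asked at each time. At 12 h all 6 were higher in fed larvae, and 4 of the 6 passed an adjusted p under 0.05 from the authors' deposited table, where 4.59% of all probe sets were higher and passed. The log2 ratio of fed over starved larvae was 3.06 ± 0.37 for dpy-2, an 8.31-fold difference (adjusted p = 0.0321 from the authors' deposited table). On its second probe set, undetected in starved larvae, dpy-2 was at least 14.2-fold higher and did not pass (adjusted p = 0.287 from the authors' deposited table), by the bound explained next. For probe sets detected in fed but not in starved larvae, a lower bound is given. It is the fed mean over the higher of the starved mean and the lowest intensity detected for any probe set in that starved condition. Other pairs with an undetected condition are treated in the same way. Where the undetected mean is the higher value, the bound is the plain ratio of the means. The bound leaves out the errors of both means, so the difference may be smaller than it. By this bound dpy-8 rose at least 43.8-fold (adjusted p = 0.0183 from the authors' deposited table) and dpy-7 at least 28.5-fold (adjusted p = 0.0316 from the same deposited table of the authors). For dpy-10 the probe set used gave at least 17.9-fold (adjusted p = 0.0288 from the authors' deposited table) and the second one at least 7.47-fold (adjusted p = 0.0462 from the authors' deposited table). dpy-3 and dpy-9 were at least 18.9-fold and 19.4-fold higher, but the authors' deposited table lists their p at this time as exactly 1.

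That listing was common among dim probe sets: at 12 h the authors' deposited table lists a p of exactly 1 for 3298 probe sets, of which 3273 were undetected in 1 or both of the conditions. Over the 27 pairs of conditions for which a p was deposited, dpy-3 was listed at 1 in 22 and dpy-9 in 23. A p recomputed from the difference of the deposited means over their combined errors, with 4 degrees of freedom, was 0.0244 for dpy-3 and 0.0154 for dpy-9, and 0.121 and 0.0909 after Benjamini-Hochberg adjustment over all probe sets. By this recomputed test all 6 genes had an unadjusted p under 0.05 at 12 h and 0 passed after adjustment, where 4.57% of all probe sets were higher and passed, with adjusted p between 0.0756 and 0.121. The 4 calls at 12 h therefore rest on the authors' test.

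At 24 h all 6 were again higher in fed larvae, and 2 passed, against 3.87% of all probe sets that were higher and passed. dpy-8 rose at least 34.5-fold (adjusted p = 0.0233 from the authors' deposited table). dpy-2 rose by 2.74 ± 0.36 on the log2 scale (adjusted p = 0.0498 from the authors' deposited table), and at least 12.9-fold on its second probe set (adjusted p = 0.0369 from the same deposited table of the authors). dpy-7, at least 30.8-fold higher, and dpy-10, at least 18.2-fold higher, missed the threshold, with adjusted p of 0.103 and 0.0619 from the authors' deposited table. The second probe set of dpy-10 gave at least 6.64-fold (adjusted p = 0.0559 from the authors' deposited table). dpy-9 was at least 20.8-fold higher and dpy-3 was detected in neither condition, and both have a listed p of 1. By the recomputed test 1 gene passed at 24 h, and it was dpy-7 (adjusted p = 0.0464), where 4.4% of all probe sets were higher and passed.

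At 6 h and at 15 h the means of all 6 were higher in fed larvae and 0 passed, beside 1.56% and 4.69% of all probe sets in either direction. At 6 h, 2 of the 6, dpy-7 and dpy-10, had an unadjusted p under 0.05 in the authors' deposited table and by the recomputed test. Of the fed 6 h means only those of dpy-2 and dpy-10 were called detected, and dpy-10 was at least 6.30-fold above starved larvae on the probe set used. On its second probe set, detected in both conditions, dpy-10 was 1.75-fold higher in fed larvae at 6 h (log2 0.81 ± 0.49). At 15 h, 3 of the 6 had an unadjusted p under 0.05 in the authors' deposited table and 1, dpy-8, by the recomputed test. dpy-8 was at least 4.36-fold above starved larvae at 15 h (adjusted p = 0.122 from the authors' deposited table). At 0, 1 and 3 h again 0 passed, beside 0.0%, 0.00443% and 1.03% of all probe sets. Fed means were higher for 6 of 6 genes at 0 h and for 3 of 6 at 1 h and at 3 h. At 3 h 2 of the 6 had an unadjusted p under 0.05 in the authors' deposited table and 0 by the recomputed test, with opposite signs. dpy-10 had 74.5 in fed and 29.3 in starved larvae (p = 0.00413 in the authors' deposited table), both undetected, and its second probe set had 64 in fed and 88.1 in starved larvae. dpy-2 had 143 in fed and 186 in starved larvae (p = 0.00741 in the authors' deposited table).

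**Figure D2:**
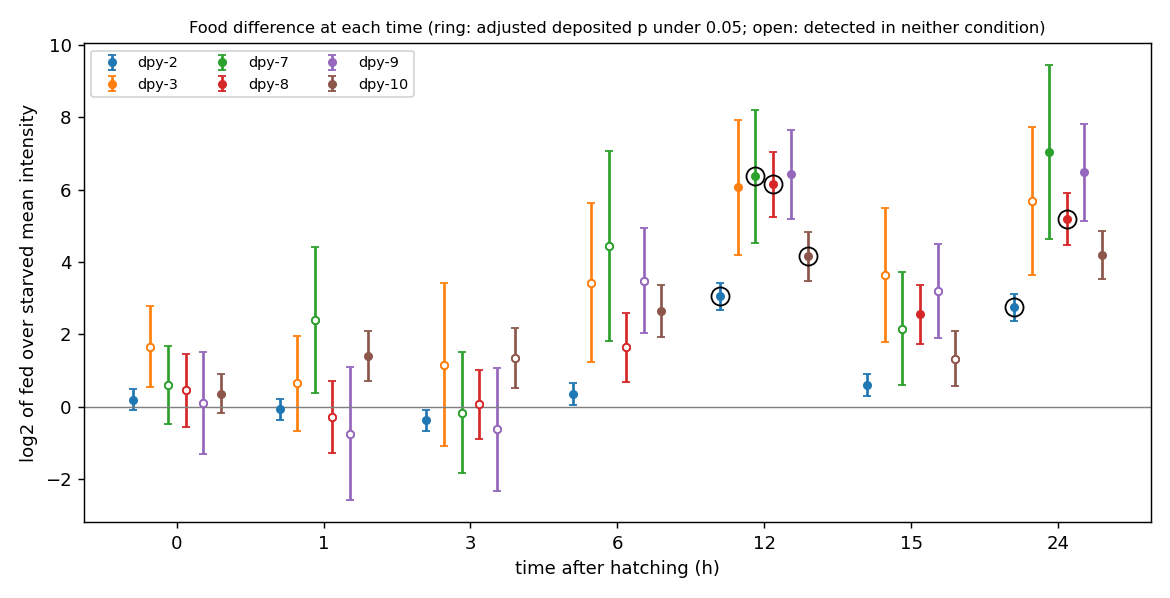
The log2 ratio of fed over starved mean intensity for each of the 6 genes at each time after hatching; bars are errors propagated from the authors' errors. Rings mark an adjusted p under 0.05 from the authors' deposited table, 4 at 12 h and 2 at 24 h, and open points were detected in neither condition, so their size is not measured.

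Over all 7 times together, a limma fit on the log2 means with time as a factor called 3 of the 6 higher in fed larvae, where 13.5% of all probe sets were called higher. dpy-3 rose by 3.18 ± 0.76 (limma adjusted p = 0.0213). dpy-7 rose by 3.26 ± 0.98 (limma adjusted p = 0.0446). dpy-10 rose by 2.21 ± 0.53 (limma adjusted p = 0.0218). The food ratio of the others was 2.26 ± 0.90 for dpy-8, 2.62 ± 1.1 for dpy-9 and 0.93 ± 0.49 for dpy-2, with limma adjusted p of 0.102, 0.118 and 0.197. The residual of this fit is the change of the food ratio between times, which was wide here because the ratios at 0 to 3 h and those at 12 and 24 h were far apart. These log2 ratios include starved means at the floor or below detection. With means below 20 raised to 20 the ratio was 1.83 for dpy-3, 2.17 for dpy-7 and 2.21 for dpy-10, and only dpy-10 was called. Without 6 h 0 of the 6 were called by limma, although all 6 had a ratio above 0, and without 15 h only dpy-10 was called (limma adjusted p = 0.0413). Without any single one of the other 5 times, 2 or 3 of the 6 were called. With the second probe sets, a comparison chosen after the values had been seen, dpy-2 had a ratio of 2.73 (limma adjusted p = 0.0425) and dpy-10 a ratio of 0.98 (limma adjusted p = 0.158), so both results depend on the probe set.

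In the authors' deposited table of analyses of variance, the interaction of food and time passed for 5 of the 6 genes, as it did for 54.7% of all probe sets with a p. The adjusted p from the authors' deposited table was 1.33e-15 for dpy-2, dpy-7, dpy-8 and dpy-10 and 5.56e-12 for dpy-3. For dpy-2, dpy-7, dpy-8 and dpy-10 the authors' analysis of variance lists the same unadjusted p, 1.11e-16, which may be a limit of the listing. For dpy-9 the cells for the interaction and for food alone are empty. Its effect of time passed with an adjusted p of 3.08e-11 in the authors' deposited table, as did the effect of time for the other 5 genes and for 60.5% of probe sets.

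Within the fed course, the low at 15 h set the 2 high times apart in every gene. The fed arrays of all times together came from 3 hybridization days, so these steps are not crossed with the days that separate fed from starved. How the arrays of each time were spread over those 3 days was not examined, so a step may still coincide with a day. From 6 to 12 h all 6 means were higher at the later time, by at least 17.3-fold for dpy-8, 7.70-fold for dpy-3, 7.64-fold for dpy-9 and 5.79-fold for dpy-7. The 12 h over 6 h log2 ratio was 2.25 ± 0.37 for dpy-2 and 1.81 ± 0.45 for dpy-10, which were detected at both times. At 15 h the means were lower than at 12 h in all 6. The 15 h over 12 h log2 ratio was -3.31 ± 0.47 for dpy-8 and -2.47 ± 0.35 for dpy-2, both detected at each time. The 15 h means of dpy-3, dpy-7 and dpy-9 were not called detected, and lay at least 6.69-fold, 13.3-fold and 9.34-fold below those at 12 h. dpy-10 at 15 h was undetected on the probe set used, at least 8.47-fold below 12 h, but detected on the second one, where it was 3.80-fold below 12 h (log2 -1.92 ± 0.43). The second probe set of dpy-2 was undetected at 15 h and lay at least 13.7-fold below 12 h. At 24 h the means of all 6 were higher than at 15 h, with a log2 ratio of 2.92 ± 0.44 for dpy-8 and 2.18 ± 0.34 for dpy-2 and at least 13.9-fold for dpy-7. dpy-10 was at least 7.95-fold higher on the probe set used and 3.84-fold higher on the second one, and dpy-2 at least 12.0-fold higher on its second one.

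None of these steps passed after adjustment in any of the 6 genes, and few probe sets did at all: 0.248% from 6 to 12 h, 0.00887% from 12 to 15 h and 0.0% from 15 to 24 h. Unadjusted p from the authors' deposited table was under 0.05 for 4 of the 6 from 6 to 12 h, 5 of the 6 from 12 to 15 h, and 5 of the 6 from 15 to 24 h. By the recomputed test it was under 0.05 for 6, 6 and 5 of the 6. Among 9822 genes detected at fed 12, 15 or 24 h, 575 (5.85%) had their 2 highest conditions at fed 12 h and fed 24 h, as all 6 furrow collagens did. A log2 difference of more than 1 on each side of 15 h was present in 360 of those genes (3.67%) and in all 6 furrow collagens. The level at 24 h was between 69.6% (dpy-3) and 105% (dpy-7) of that at 12 h.

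RNA was taken from whole animals, so fewer cells of a type and less RNA per cell cannot be told apart. Epidermal marker genes moved in part with the furrow collagens. Of 8 listed epidermal markers 7 were measured, and 6 or 7 were detected in every fed and starved condition. Their summed intensity ranged from 1104 to 2455 in fed larvae and from 1040 to 1652 in starved larvae, with 2455 at fed 12 h, 1104 at fed 15 h and 1538 at fed 24 h. Most of that swing was wrt-2, a hedgehog-related gene of the seam epidermis, with 1187 ± 247 at fed 12 h, 110 ± 28.9 at fed 15 h, 590 ± 66.5 at fed 24 h and 17.4 ± 8.89 at starved 12 h. Without wrt-2, a sum chosen after the values had been seen, the other 6 markers summed to 1268 at fed 12 h, 995 at fed 15 h and 948 at fed 24 h, against 1186 at starved 12 h and 1458 at starved 24 h. That sum stayed within 948 to 1474 over all fed times and 1019 to 1630 over all starved times. Over the 7 times the median log2 food ratio of the 7 measured epidermal markers was -0.10, with 2 of the 7 above 0. Marker sums of other tissues overlapped between fed and starved larvae for intestine, body wall muscle and pharynx, and were lower in fed larvae for neurons (1401 to 2415 against 2470 to 3139). The part of these shifts in the furrow collagen levels was not tested.

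Food-removed larvae were set beside larvae fed for 12 h, the time of removal, and for 15 h, the time of collection. The means of all 6 genes were lower in food-removed larvae than in fed larvae at 12 h. dpy-2 had 218 ± 33.1 in food-removed larvae, against 1018 ± 204 at fed 12 h and 184 ± 25.3 at fed 15 h. dpy-8 had 184 ± 53.2 in food-removed larvae, against 965 ± 213 and 97.5 ± 23.4. dpy-7 had 60.8 ± 22.6 in food-removed larvae, against 627 ± 151 and 47.1 ± 19.9. The other 3 followed the same order, with 122 ± 33.3 for dpy-3, 72.3 ± 23.7 for dpy-9 and 106 ± 39.9 for dpy-10 in food-removed larvae. The second probe sets had 29 ± 17.4 (dpy-2) and 128 ± 35.3 (dpy-10), at least 10.8-fold and 3.62-fold below fed 12 h, and 22.9 ± 13.9 and 122 ± 26.9 at fed 15 h. On the probe sets used, the log2 ratio to fed 12 h lay between -3.37 (dpy-7) and -1.77 (dpy-3), 5 of the 6 had an unadjusted p under 0.05 in the authors' deposited table, and 0 passed after adjustment, beside 0.0266% of all probe sets. Relative to larvae fed throughout to 15 h, all 6 means were higher in food-removed larvae, with 0 of 6 at an unadjusted p under 0.05 in the authors' deposited table and 0.00443% of all probe sets called. The 2 genes detected in both conditions had a log2 ratio to fed 15 h of 0.25 ± 0.30 (dpy-2) and 0.92 ± 0.54 (dpy-8). The levels were thus low at 15 h with and without food, and a difference of these sizes was not detectable with these errors. The food-removed arrays shared no hybridization day with the fed arrays, so day and food removal cannot be told apart here.

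Refeeding for 3 h after 12 h of starvation did not bring any of the 6 genes near its fed 12 h level. Larvae fed for 3 h from hatching were not near that level either. dpy-10 had 89.9 ± 33.6 in refed larvae, against 41 at starved 12 h and 34.4 at starved 15 h, and was detected in none of them on the probe set used. Its second probe set had 84.6 ± 19.7 in refed larvae, where it was detected, against 62.2 and 74.4 at the 2 starved times. dpy-2 had 96.9 ± 17.4 in refed larvae, the lowest of the 18 conditions on the probe set used, against 122 at both starved times. Its second probe set had 8.89 ± 6.63 in refed larvae, against 5.78 and 5 at the 2 starved times, undetected in each. The others had 11.7 ± 9.67 (dpy-3), 14.9 ± 12 (dpy-7), 16.2 ± 8.49 (dpy-8) and 5 ± 5.8 (dpy-9) in refed larvae, all undetected. On the probe sets used, refed means were between 1.17% and 12.3% of the same gene's fed 12 h mean. None of the 6 passed against starved 12 h or starved 15 h, where 3.21% and 2.04% of all probe sets did. In each of these 2 comparisons, 1 of the 6 had an unadjusted p under 0.05 in the authors' deposited table and 0 of the 6 by the recomputed test. Larvae fed for 3 h from hatching had 143 (dpy-2), 11.2 (dpy-3), 13.6 (dpy-7), 20.0 (dpy-8), 5 (dpy-9) and 74.5 (dpy-10). Against them 0 of the 6 and 0.0% of all probe sets passed. In that pair dpy-2, with a log2 ratio of -0.57 ± 0.34, had the only unadjusted p under 0.05 in the authors' deposited table. The refed arrays shared no hybridization day with the fed or starved arrays, so day and refeeding cannot be told apart.

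**Figure D3:**
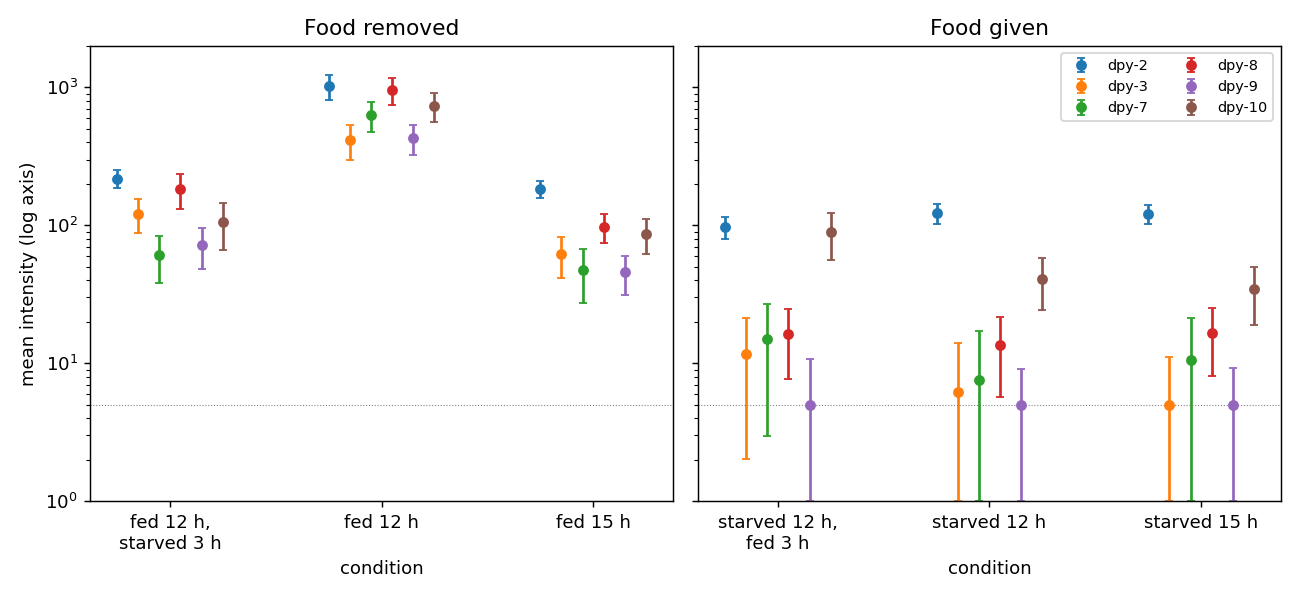
Mean intensity (log axis) of the 6 genes in food-removed larvae beside fed 12 h and fed 15 h (left), and in refed larvae beside starved 12 h and starved 15 h (right). Bars are the authors' errors, cut at 1, and the dotted line is the floor of 5; food-removed levels sit near fed 15 h, and refed levels on these probe sets are at most 12.3% of fed 12 h.

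Around hatching, dpy-2 was the only one of the 6 with a call: starved larvae at 0 h had 168 ± 24, against 245 ± 30.4 in the embryo. This log2 ratio of -0.54 ± 0.27 passed in the authors' deposited table (adjusted p = 0.0494), where 1.25% of all probe sets passed and were lower, but not by the recomputed test (adjusted p = 0.344). All 6 means were lower at starved 0 h than in the embryo, by little for dpy-10 (113 ± 34.3 against 113 ± 28.8). Fed larvae at 0 h against the embryo gave 0 calls among the 6, and no step between neighbouring starved times gave one, beside 0.0% of all probe sets in each of these comparisons. M9 in place of S-complete at 3 h of starvation likewise gave 0 calls, with 0.0% of all probe sets called. dpy-2 had 171 ± 29.6 in M9 and 186 in S-complete at 3 h. dpy-8 had 21.4 ± 11.6 in M9 and 19.0 in S-complete, and dpy-10 had 18 ± 14.1 and 29.3. Fed 3 h against M9, whose arrays shared the hybridization days of the fed arrays, gave 0 of 6 by the recomputed test and 0.0% of all probe sets.

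The log2 profiles of the 6 genes over the 18 conditions resembled each other, with r between 0.76 (dpy-8 and dpy-10) and 0.97 (dpy-8 and dpy-9) over 15 pairs. Without fed 12 h and fed 24 h the range over 16 conditions was 0.34 to 0.91, so the likeness of some pairs rests on those 2 conditions. dpy-8 and dpy-10 differed most then. dpy-10 was detected in the embryo and in fed larvae at 0 and 1 h, where dpy-8 was not detected. In each condition all genes are read from the same 3 arrays, and these correlations are given as descriptions.

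The genes most like the mean profile of the 6, among 11367 genes compared, include proteins of the apical matrix that lines the outside of the epidermis. The highest r over 18 conditions were those of T03G6.1 (0.983), lpr-4 (0.982), Y105E8A.13 (0.979), let-4 (0.975), mlt-11 (0.974), K10D3.4 (0.970), acn-1 (0.970), ptr-4 (0.970), cuti-1 (0.967) and col-128 (0.964). lpr-4 encodes a lipocalin-related secreted protein, let-4 an extracellular leucine-rich repeat protein, and mlt-11 a protein with protease inhibitor domains needed for moulting. acn-1 encodes a relative of angiotensin-converting enzyme and ptr-4 a patched-related membrane protein. lpr-4 had 127 at fed 6 h, 693 at fed 12 h, 81.5 at fed 15 h and 736 at fed 24 h, beside 15.1 and 16.0 at starved 12 and 24 h. mlt-11 had 198, 924, 152 and 669 at those fed times, beside 31 and 23.3. An r above 0.9 was found for 112 of the genes compared (0.985%), and for 1 of 120 genes named col-, which was col-128. For single members the most like gene was ptr-4 for dpy-3 (0.984), nas-37, a metalloprotease that acts on the old cuticle, for dpy-8 (0.986), and noah-2, an apical matrix protein, for dpy-10 (0.986). It was col-128 for dpy-2 (0.956), lpr-4 for dpy-7 (0.971) and Y105E8A.13 for dpy-9 (0.961).

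Other collagens with mutant effects on body shape were set beside the furrow group. Of 14 such genes 13 were measured and 12 were detected in 1 or more conditions. At 12 h 7 of the 13 passed and were higher in fed larvae, and 12 of the 13 had a ratio above 0, where 4.59% of all probe sets were higher and passed. sqt-1, a collagen whose mutants can roll, had 3936 ± 369 at fed 12 h, against 10.2 ± 7.78 and no detection at starved 12 h (adjusted p = 0.00119 from the authors' deposited table). dpy-5 had 4717 ± 362 at fed 12 h, against 27.5 ± 9.53 and no detection at starved 12 h (adjusted p = 0.0045 from the authors' deposited table). At 24 h 8 of the 13 passed and were higher, where 3.87% of all probe sets did. Over 7 times limma called only sqt-3 higher, with a ratio of 1.33 ± 0.39 (limma adjusted p = 0.0425), beside 13.5% of all probe sets. The median log2 food ratio of the 13 over 7 times was 1.27, beside 0.30 for 139 genes named col-, of which 11 were called higher and 8 lower, beside 13.5% and 16.8% of all probe sets.

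Of these 13, 7 shared the 2 highest conditions of the furrow group: dpy-4, dpy-5, sqt-1, sqt-2, rol-6, rol-8 and lon-3. At 15 h their levels were 11.6% to 53.7% of the same gene's fed 12 h level, and those of the 6 furrow collagens were 7.51% to 18.1% on the probe sets used. The second probe set of dpy-10, 3.80-fold below its fed 12 h level, lies above that range. At 24 h they were 41.2% to 83.5% of it, and the furrow collagens 69.6% to 105%. At 6 h they were 0.571% to 13.3% of it with a median of 1.37%, and the furrow collagens 5.78% to 28.6% with a median of 15.2%. Only 1 of the 7 and 2 of the 6 were called detected at fed 6 h, and an undetected level is a smaller share of a higher peak, so the shares at 6 h also depend on the peak. sqt-1 had 22.5 ± 10.6 at fed 6 h and 11.4 ± 8.08 at fed 3 h, and dpy-5 had 33.3 ± 10.4 and 29.7 ± 9.87. Among the furrow collagens dpy-7 had 108 ± 30.9 at fed 6 h and 13.6 ± 11.5 at fed 3 h, and dpy-10 had 210 ± 42.5 and 74.5 ± 22.5. None of these differences between the groups of genes was tested. Some body-shape collagens had another course: dpy-17 had 2776 ± 423 in the embryo and 131 ± 42.8 at fed 12 h, and dpy-14 had 1598 ± 221 and 33.7 ± 19.2.

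**Figure D4:**
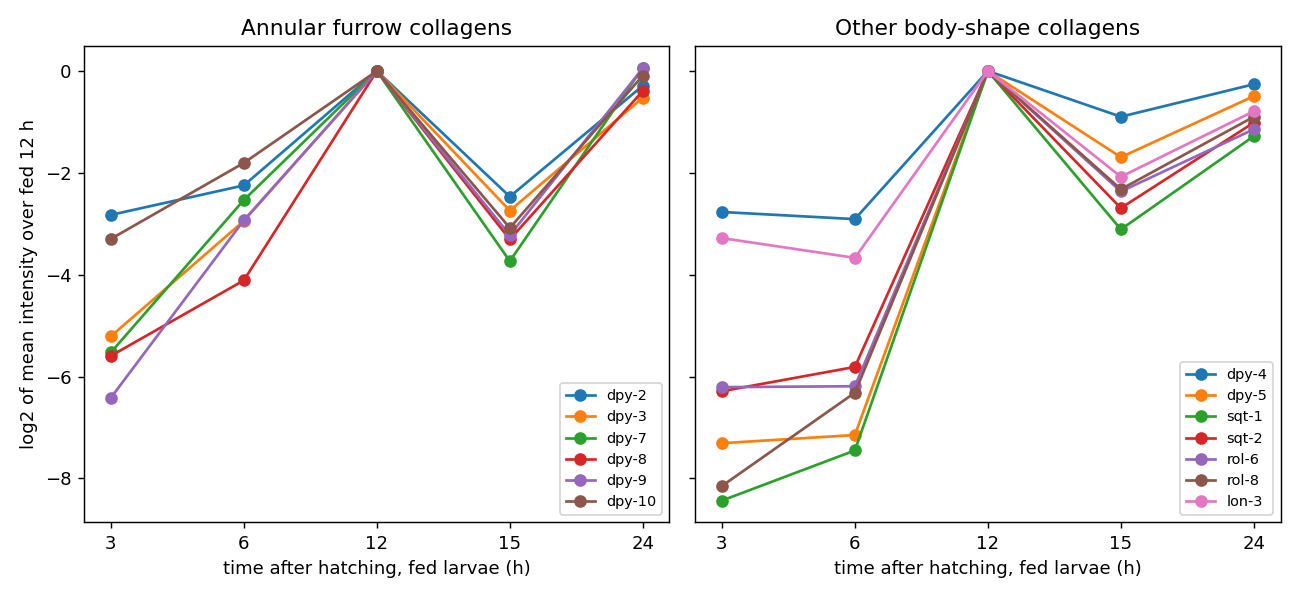
The log2 ratio of each fed mean to the same gene's fed 12 h mean at 3, 6, 12, 15 and 24 h for the 6 furrow collagens (left) and the 7 other body-shape collagens whose 2 highest conditions were also fed 12 h and 24 h (right). The furrow collagens were at 7.51% to 18.1% of their fed 12 h level at 15 h and at 69.6% to 105% at 24 h; most points at 3 and 6 h are below detection.

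Genes for collagen modification and processing were also listed. Of 12, 5 rose and 1 fell in fed larvae over the 7 times by limma, beside 13.5% of all probe sets called higher and 16.8% called lower. dpy-18, a prolyl hydroxylase subunit, rose by 1.27 ± 0.18 (limma adjusted p = 0.00422), and pdi-2, its protein disulfide isomerase partner, rose by 1.39 ± 0.30 (limma adjusted p = 0.0148). pdi-2 had 2236 ± 154 at fed 12 h, 1335 ± 84.4 at fed 15 h and 1861 ± 132 at fed 24 h. dpy-18 had 626 ± 53.6, 719 ± 59.7 and 639 ± 62.8 at the same times, with no low at 15 h. dpy-31, a protease that trims procollagens, was the gene that fell, by a ratio of -0.33 ± 0.10 (limma adjusted p = 0.0377).

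Of 12 epidermal and moulting regulators, limma called 3 higher and 1 lower in fed larvae over 7 times, beside 13.5% and 16.8% of all probe sets. lin-42, the Period-related gene that times moults, rose by 2.67 ± 0.56 (limma adjusted p = 0.0145). It had 41.1 ± 13.2, 245 ± 19.8, 71.9 ± 16.6 and 195 ± 20.0 at fed 6, 12, 15 and 24 h, and its r to the mean profile of the furrow collagens was 0.944. That r was the highest among the listed regulators compared, which ranged down to -0.743 for elt-3, with 0.564 for nhr-23. bed-3, a zinc finger gene needed for moulting, rose by 1.51 ± 0.38 (limma adjusted p = 0.0249) and had 390 ± 30.6 at fed 12 h, 62.7 ± 12.1 at fed 15 h and 165 ± 29 at fed 24 h. nhr-23, a nuclear receptor needed for moulting, had its highest mean at fed 6 h, 47.5 ± 12.6, which was not called detected, and 26.8 ± 4.7 at fed 12 h. elt-3, an epidermal GATA factor, fell with a ratio of -0.75 ± 0.22 (limma adjusted p = 0.04).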

How the data were processed

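RNA of whole animals was measured on Affymetrix C. elegans arrays, 3 per condition, from 100 ng of RNA amplified and biotin labelled, per the labels' protocols. Expression values are intensity means of 3 arrays on a linear scale, deposited by the authors with an error in the same unit. No source used here names their software or normalization. The authors' detection table was used as a score, a p against background with detection under 1e-10. The p-value tables are the authors' deposited tests between pairs of conditions and analyses of variance. The 77 control probe sets were left out. The error was used as a standard error; it need not measure the spread between cultures, so p-values may reflect technical spread.

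Log2 of the means was taken with no pseudocount. The food effect over 7 times was fitted with limma 3.58.1 (lmFit, eBayes, R 4.3.3) on 14 conditions of all 22548 probe sets. A run on simulated data used independent noise and the same food shift at every time. It therefore does not cover a food ratio that changes between times, as that of the furrow collagens did. All p-values were adjusted by Benjamini-Hochberg over all probe sets with a threshold of 0.05. The deposited p was the test between 2 conditions, and a recomputed test with 4 degrees of freedom the alternative; fed 3 h against M9 has the recomputed test only. Other alternatives were leaving out each time, quantile normalization, no time factor, an intensity trend, detected probe sets only, a floor of 20, and the other probe set of dpy-2 and dpy-10, chosen after seeing the data. Names came from WormBase release names in the files, updated through RefSeq's gene table (assembly WBcel235). All 6 furrow collagens are named, other listed genes by their calls or as lowest and highest, and the 10 genes with the highest Pearson r to the mean z-scored profile, with 1 most like gene per furrow collagen. A few listed genes were named after their values were seen: dpy-14, dpy-17, nhr-23, nlp-29 and wrt-2. The members and lists were chosen with earlier results of these data known.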

Additional observations from a re-analysis of the deposited data

Results flagged for a closer look

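The food effect differed between times for 5 of the 6 furrow collagens by the interaction of food and time in the authors' deposited analysis of variance, adjusted over all probe sets with a p. The adjusted p from the authors' deposited table was 1.33e-15 for dpy-2, 1.33e-15 for dpy-7, 1.33e-15 for dpy-8, 1.33e-15 for dpy-10 and 5.56e-12 for dpy-3. At 12 and 24 h all 6 fed means were above the starved means, with 4 and 2 of the 6 passing, and at 0, 1 and 3 h none passed. At 1 h dpy-10 was detected in fed larvae only. Its log2 ratio of fed over starved larvae was 1.40 ± 0.68 on the probe set used (p = 0.154 in the authors' deposited table). On the second probe set it was 0.11 ± 0.51, a ratio smaller than its error (p = 0.858 in the authors' deposited table). Since 54.7% of all probe sets passed this test, it does not set the furrow collagens apart. The fed and starved arrays share no hybridization day, so day and food cannot be told apart. The differences between times within the fed arrays lie within the 3 days of those arrays, but the spread of each time over these days was not examined.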

How the results depend on the processing

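Of the checks on counts of calls and on likeness, 62 were rated the same as the main result and 7 weaker. Such counts have no direction to reverse. The food ratio over 7 times stayed above 0 for all 6 genes in every alternative. Single pairs of conditions could change sign with the probe set, as for dpy-10 at 3 h (log2 1.35 on the probe set used and -0.46 on the second one). A count rated the same could still change. Without 1, 12 or 24 h, 2 genes were called over 7 times in place of 3. Adjusting over detected probe sets gave 3 calls in place of 2 at 24 h. Many of the 62 were counts of 0 that stayed at 0. Of the 3 genes called over 7 times, leaving out 6 h left 0, leaving out 15 h left 1, and raising means below 20 to 20 left 1; leaving out each time in turn gave 0 to 3. The recomputed test gave 0 calls in place of 4 at 12 h, 1 in place of 2 at 24 h, and 0 in place of 1 for starved 0 h against the embryo. By Spearman rho 4 of the 10 most like genes were shared. dpy-7 missed the threshold without 1 h (3.41), 6 h (3.06), 12 h (2.74), 15 h (3.45) or 24 h (2.63). dpy-3 missed it without 6 h (3.14) or 15 h (3.11), and dpy-10 without 6 h (2.13). The cause was not tested. The fit over 7 times paired the fed and starved means of each time. Pairing of arrays or cultures was not possible, because 1 mean per condition is deposited and every group is 1 sample. Signal limits the rest: 4 of the 6 genes were detected in 4 or fewer of 18 conditions, none of them starved, so their starved levels are bounds. The same holds for dpy-10 on the probe set used, which was undetected in all starved conditions. Its second probe set was detected in some of them.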

Other observations

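Genes that are known to be switched on when annular furrows are lost, or that control that response, were measured in these furrow-bearing wild-type animals. Of 12 on the list 11 were measured, and limma called 5 higher and 0 lower in fed larvae over the 7 times, beside 13.5% of all probe sets called higher. gpdh-1, an enzyme of glycerol synthesis, rose by 2.37 ± 0.40 (limma adjusted p = 0.00728), with 136 ± 15.8, 73.7 ± 11.2, 109 ± 17.1 and 217 ± 21.0 at fed 6, 12, 15 and 24 h. Refed larvae had 172 ± 29.3 for gpdh-1, against 13.4 ± 5.14 at starved 12 h. hmit-1.1, an inositol transporter, rose by 1.93 ± 0.49 (limma adjusted p = 0.025), and in refed larvae it had 1174 ± 131, the highest of the 18 conditions, against 66.1 ± 12.6 at starved 15 h (adjusted p = 0.0371 from the authors' deposited table). Neither gene had the low at fed 15 h that the furrow collagens had.

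osm-8, a secreted mucin-like regulator of the osmotic response, had 230 ± 44.0 at fed 12 h, 5.59 ± 4.62 at fed 15 h and 176 ± 39.0 at fed 24 h, and was detected at fed 12 h and 24 h only. Its starved 12 h mean stood at the floor of 5 (adjusted p = 0.036 from the authors' deposited table). nlp-29, an antimicrobial peptide gene, had 396 ± 58.6 at fed 12 h, 1710 ± 191 at fed 15 h and 1178 ± 265 at fed 24 h, so that its highest of these 3 means fell where those of the furrow collagens were lowest. No test of that opposite order was run, and nlp-29 was named after its values had been seen. Of the 11 measured genes on the list, 8 had a higher mean at fed 15 h than at fed 12 h, beside 7708 of all 17000 genes. Likewise 8 of the 11 had a higher mean at fed 24 h than at fed 15 h, beside 7827 of all 17000 genes. Of those 17000, 11372 were detected in 1 or more conditions. Neither count was tested.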
